A study of Arabidopsis thaliana with 24 samples.

Results

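The 44 genes described here encode the core engine of the plant cell cycle and its direct inhibitors: 27 cyclins, 5 cyclin-dependent kinases (CDKs), 7 KRP inhibitors, SIAMESE and its relative SMR1, the kinase WEE1, and the CKS subunits CKS1 and CKS2. They were taken by gene identifier from the 25960 genes of the expression files, a rule that uses no measured value. The list itself was chosen with earlier results of these data known. The cyclins comprised 8 of the A type, 9 of the B type and 10 of the D type. RNA was sequenced from pieces of Arabidopsis thaliana (Columbia, Col-0) hypocotyl, the seedling stem below the cotyledons, of wild type (WT) and of the mutant siz1-2, which is defective in the SUMO E3 ligase SIZ1. All seedlings were raised for 7 days in darkness. Explants were collected within 15 minutes of excision (0 d), after 4 days in constant light on callus-inducing medium with the auxin 2,4-D and the cytokinin kinetin (CIM 4 d), or after a further 4 or 6 days on shoot-inducing medium with the auxin IAA and the cytokinin 2-IPA (SIM 4 d and SIM 6 d). Each of the 8 groups of genotype and stage had 3 libraries, 24 in all. Nothing in the labels says whether the replicates of a group came from separate cultures. A p-value here reflects the spread among libraries within groups, pooled over the 8 groups, and that spread could be technical. The free text of SIM 6 d replicates 2 and 3 swaps the days on the media, and titles and sampling times were followed. The mutant is represented by 1 allele.

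CDKs are active only when bound to a cyclin. In plants CDKA;1 works throughout the cycle and the plant-specific B-type CDKs around mitosis, D-type cyclins link hormones and sugar to entry into S phase, A-type cyclins act mainly in S and G2 phase, and B-type cyclins act at mitosis. KRP proteins bind and block CDK-cyclin complexes, and SIAMESE-type proteins restrain mitosis and favour endoreduplication, in which cells copy DNA without dividing. Auxin and cytokinin in callus medium drive hypocotyl cells back into division.

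Many G2 and M phase genes carry in their promoters the mitosis-specific activator (MSA) element, whose core AACGG is bound by MYB3R transcription factors. The core, on either strand and with overlapping matches counted, was searched in the 250 bases before the annotated start of every protein-coding gene of RefSeq's TAIR10.1 copy. It occurred at least once in 20.6% of 27443 promoters and at least 2 times in 3.62%. Of the 44 genes, 17 (38.6%) held it and 13 (29.5%) held it 2 or more times. Among the B-type cyclins, 6 of 9 held 3 or 4 copies and CYCB1;4, CYCB2;4 and CYCB3;1 held none in this window. Of the A-type cyclins 4 of 8 held it, all with 2 copies, against 1 of 10 D-type cyclins. KRP1 held 6 copies, the most of any of the 44 genes, KRP7 held 3 and KRP2 held 2. The sites TTTCCCGC, TTTGGCGC, TTTCGCGC and TTTGCCGC, to which E2F factors of S phase genes bind, were searched the same way and occurred in 1.41% of all promoters and in 2 of the 44, those of CYCA1;2 and CYCD3;3. A match is a string of letters and not a measured binding site.

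Of these promoters, 4 are shown for the contrasts met below: CYCB1;1, which rose on callus medium, CYCB1;4, the only B-type cyclin called lower there in WT, and KRP1 and KRP2, inhibitors that fell there and rose again on shoot medium. Each is the 250 bases before the gene start, 5′ to 3′ on the gene's strand, from TAIR10.1, with the MSA core and its reverse complement in capitals. In the order given, the windows are chr4:17624309-17624558 (minus strand), chr2:11400868-11401117 (plus strand), chr2:9978091-9978340 (minus strand) and chr3:18800056-18800305 (plus strand). No other annotated gene lies in these 4 windows.
CYCB1;1: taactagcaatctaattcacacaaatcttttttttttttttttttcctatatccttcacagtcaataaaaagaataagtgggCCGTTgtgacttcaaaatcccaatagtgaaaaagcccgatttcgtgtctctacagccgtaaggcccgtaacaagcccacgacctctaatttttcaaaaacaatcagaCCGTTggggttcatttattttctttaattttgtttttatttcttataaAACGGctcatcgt
CYCB1;4: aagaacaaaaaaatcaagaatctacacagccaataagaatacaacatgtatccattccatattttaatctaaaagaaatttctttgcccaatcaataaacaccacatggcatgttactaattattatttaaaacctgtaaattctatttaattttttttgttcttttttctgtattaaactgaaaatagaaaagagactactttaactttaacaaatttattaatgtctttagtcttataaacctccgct
KRP1: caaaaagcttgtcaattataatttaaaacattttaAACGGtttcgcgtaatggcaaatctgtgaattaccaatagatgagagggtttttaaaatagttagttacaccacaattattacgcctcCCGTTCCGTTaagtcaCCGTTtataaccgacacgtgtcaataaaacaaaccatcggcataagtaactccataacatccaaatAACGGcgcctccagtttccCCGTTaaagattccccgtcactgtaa
KRP2: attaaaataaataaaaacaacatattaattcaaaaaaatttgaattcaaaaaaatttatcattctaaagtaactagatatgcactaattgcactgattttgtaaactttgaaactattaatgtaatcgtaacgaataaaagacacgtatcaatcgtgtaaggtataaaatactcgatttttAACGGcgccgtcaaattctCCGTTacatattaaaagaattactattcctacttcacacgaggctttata

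**Figure D1:**
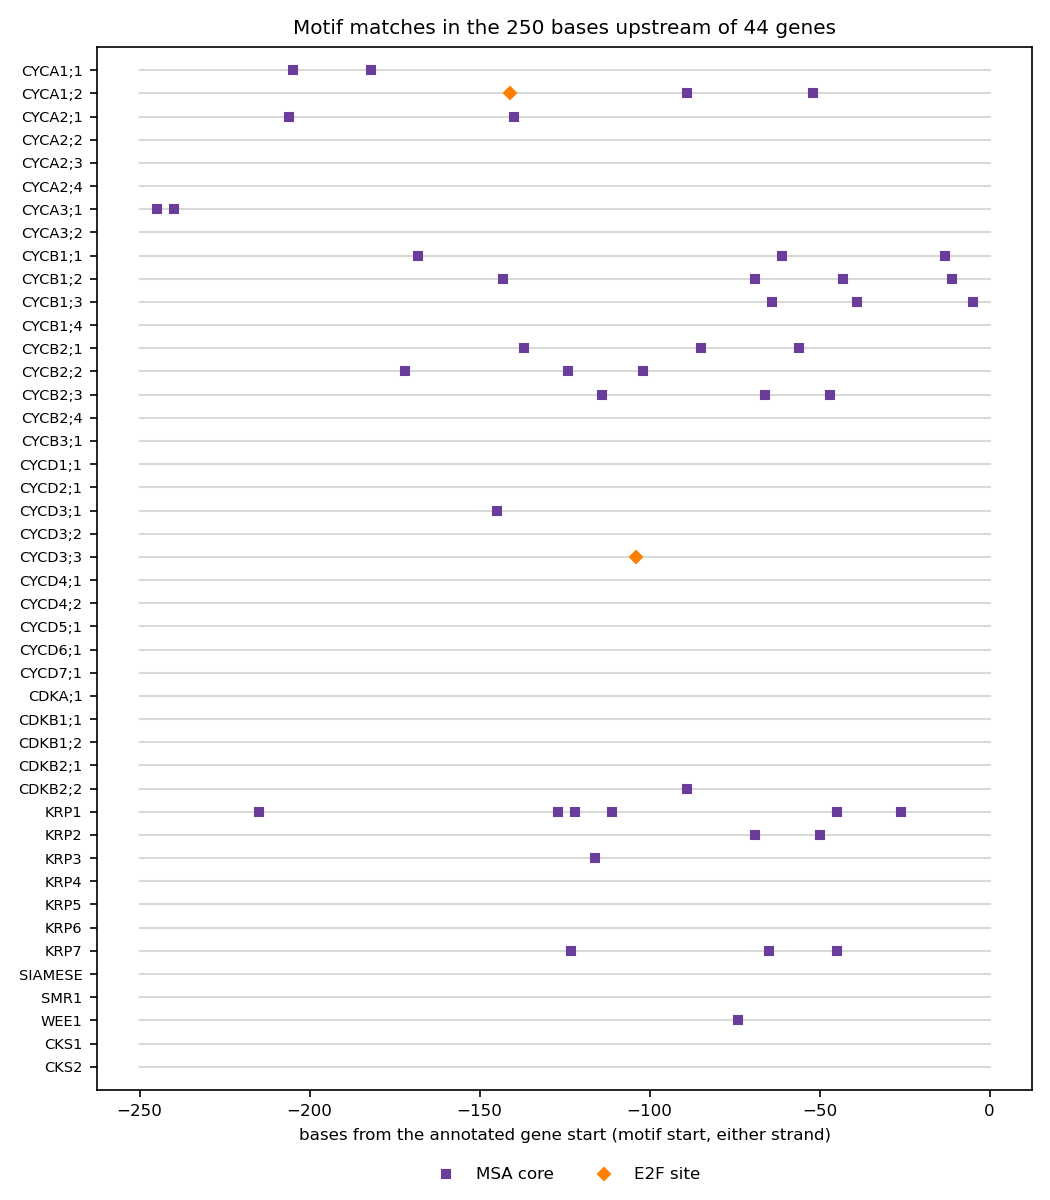
Matches of the MSA core and of the E2F sites (symbols) in the 250 bases before the annotated start of each of the 44 genes, with bases from the gene start on the horizontal axis. KRP1 has 6 MSA matches, and 6 of the 9 B-type cyclins have 3 or 4 each.

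Values are reads per 1000000 library reads (rpm), from libraries of 7.98 to 15.59 times 1000000 reads. A gene's change is a difference of log2(rpm + 1) with its standard error (SE), which understates changes of low genes, and is called where limma's p-value, adjusted over 20361 genes by the Benjamini-Hochberg method, was below 0.05. The labels of the genotypes were checked on SIZ1: its isoform 1 had 216 to 493 reads more than its isoform 3 in each of 12 WT libraries, and a difference of -1 to 0 reads in each of 12 from siz1-2. Of the 24 libraries, 4 stood apart from both others of their group at more than 4-fold for 82 to 292 genes (WT 0 d replicate 1, WT CIM 4 d replicate 2, WT SIM 6 d replicate 2 and siz1-2 CIM 4 d replicate 3). None of the 44 genes was among those in any library.

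Per kilobase of transcript, SIAMESE was the most abundant of the 44 transcripts in freshly cut WT hypocotyls, at 128 ± 5.56 rpm per kb (SD, n = 3), followed by CDKA;1 at 68.0 ± 3.69 and CYCD3;1 at 41.8 ± 1.35. The place of CYCD3;1 before CKS2 at 0 d lay within the spread of their libraries. CYCD3;1, a D-type cyclin, led on callus medium with 86.4 ± 2.05 rpm per kb, before CKS2 (76.2 ± 17.8), CDKB2;1 (54.4 ± 2.77) and CDKA;1 (53.7 ± 3.51). Neither the first nor the last pair in that order differed beyond its spread. At SIM 6 d the same cyclin reached 131 ± 13.1 rpm per kb, and the next 4 transcripts, those of both CKS genes and of the same pair of CDKs, lay together between 44.8 and 48.6. The lowest levels were those of CYCA2;1, CYCD4;2, CYCA1;2 and CYCD7;1. CYCD7;1, a D-type cyclin known from the guard cell lineage, had 1 read in 1 WT 0 d library and none in the other 23, where a count of 0 allows up to 0.192 to 0.376 rpm per library (3 reads, counting error only). It was the 1 gene of the 44 that did not pass the filter on low values.

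Between 0 d and CIM 4 d most cyclins, all B-type CDKs, WEE1 and both CKS genes rose in WT, SIAMESE, SMR1, KRP1 and KRP2 fell, and KRP3 rose. Of the 43 genes tested 30 rose and 8 fell, with a median log2 change of 0.79. Over all 20361 genes 49.1% rose and 26.6% fell, with a median of 0.35. The transcripts of bulk tissue cannot tell fewer cells of a type from less RNA per cell. Light, medium and time since cutting all changed between 0 d and CIM 4 d, and their parts cannot be told apart here. With library sizes set by the median of ratios, the median change of all genes moved by -0.36. Of the 43 genes 22 then rose and 10 fell in WT, where 35.5% of all genes rose and 37.7% fell. The share of higher among the called of the 43 went from 78.9% to 68.8%. In siz1-2, 31 of the 43 rose and 7 fell, with a median of 0.93, where 49.6% of all genes rose and 27.3% fell. With median-of-ratios scaling 26 rose and 10 fell in siz1-2, where 7497 of the 20361 genes rose and 7884 fell. Markers of root and callus identity moved with this step: all 6 rose in both genotypes, their sum going from 29.5 to 34.6 rpm in WT at 0 d to 343 to 473 rpm at CIM 4 d. Of 4 xylem markers 3 fell in WT, the sum going from 437 to 595 rpm down to 113 to 254 rpm. The part of such cells in the changes of the 44 genes was not tested.

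The move from CIM 4 d to SIM 4 d was smaller and mixed. In WT 7 of the 43 genes rose and 14 fell, with a median of -0.18, where 21.2% of all genes rose and 24.5% fell with a median of -0.03. Those that rose were KRP1, KRP2, KRP6, KRP7, SIAMESE, CYCD3;1 and CYCD6;1, so that 5 of the 7 encode CDK inhibitors. Those that fell were 2 A-type, 5 B-type and 3 D-type cyclins, CDKB1;2, CKS2, KRP3 and KRP4. In siz1-2 9 rose and 14 fell, with a median of -0.12, where 28.8% of all genes rose and 25.1% fell, and without CIM 4 d replicate 3 of siz1-2 5 rose in place of 9. All 6 root and callus markers fell and all 4 xylem markers rose at this step in both genotypes. These changes share the CIM 4 d libraries with the step before, so a fall here and the rise before it are not independent.

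Between SIM 4 d and SIM 6 d limma called none of the 43 genes in either genotype. At an unadjusted p under 0.05 there were 7 in WT and 13 in siz1-2, counts with no share of all genes beside them. None of the 43 was called by edgeR on the recovered reads. DESeq2 called 1 in WT (CYCA1;1) and 2 in siz1-2 (CYCB1;3 and CDKB2;2). Over all 20361 genes DESeq2 called 243 higher and 155 lower in WT, and 99 higher and 144 lower in siz1-2. By limma's adjusted calls 0.329% of all genes rose and 0.26% fell in WT, and 0.285% rose and 0.344% fell in siz1-2. The lowest adjusted p values in WT were those of SIAMESE (-0.53 ± 0.17, adjusted p = 0.181), CYCA1;1 (0.37 ± 0.12, adjusted p = 0.183) and CYCD1;1 (0.47 ± 0.18, adjusted p = 0.282). In siz1-2 they were those of CYCB1;3 (0.37 ± 0.10, adjusted p = 0.0934), CDKB2;2 (0.38 ± 0.10, adjusted p = 0.134) and CDKB2;1 (0.41 ± 0.14, adjusted p = 0.249).

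**Figure D2:**
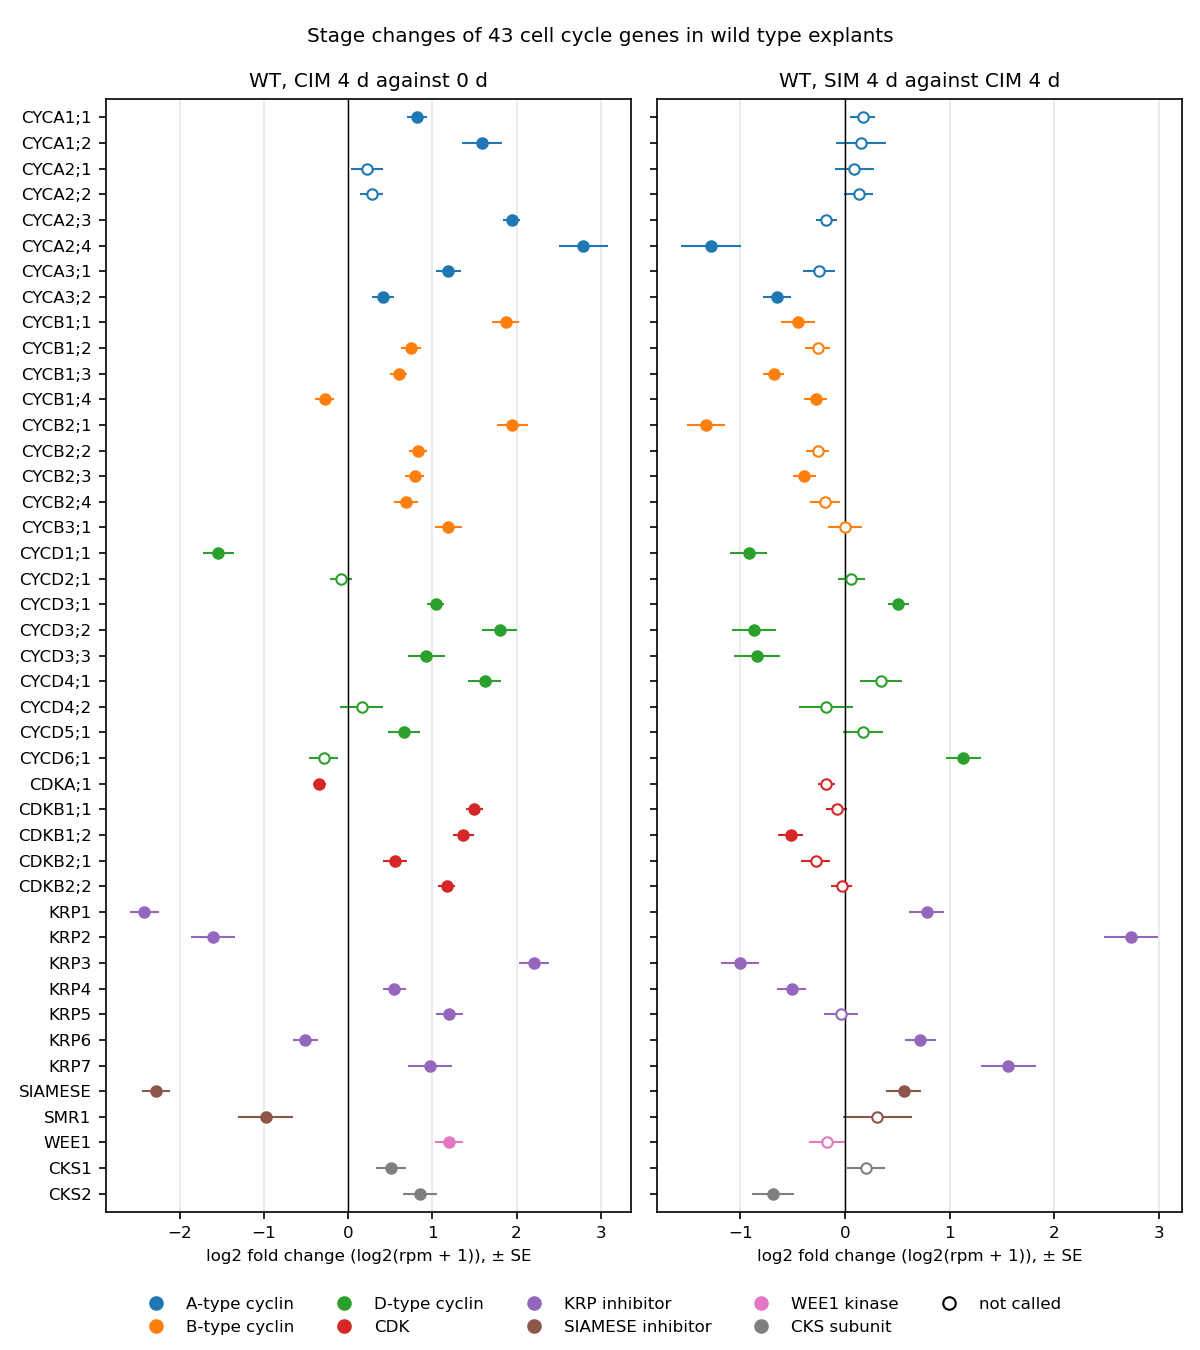
Log2 fold change with its SE (bars) of 43 cell cycle genes in WT, from 0 d to CIM 4 d (left) and from CIM 4 d to SIM 4 d (right). Filled symbols passed the adjusted threshold, open ones did not, and colours give the gene class. CYCA2;4 (2.79) lies farthest right on the left side and KRP2 (2.73) on the right side, where B-type cyclins lie at or below 0.

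The D-type cyclins, which sense the growth signals, went separate ways. Of the 9 tested, 5 rose on callus medium in WT (the 3 CYCD3 genes, CYCD4;1 and CYCD5;1), 1 fell, and 3 were not called. At this step 49.1% of all genes rose and 26.6% fell. With median-of-ratios scaling 4 of the 9 rose and 3 fell, where 35.5% of all genes rose and 37.7% fell. The rise of CYCD5;1, 0.66 ± 0.19, was not called with median-of-ratios or TMM scaling. CYCD3;1 (AT4G34160), the cytokinin-responsive cyclin that can replace cytokinin in callus when overproduced, had 80.3, 75.5 and 79.0 rpm in the WT libraries at 0 d, 157, 162 and 165 rpm at CIM 4 d, 235, 238 and 220 rpm at SIM 4 d and 217, 256 and 263 rpm at SIM 6 d. The first 3 stages did not overlap: it rose by 1.04 ± 0.10 (adjusted p = 6.22e-09) and again by 0.51 ± 0.10 (adjusted p = 0.000254), and of the 43 genes this cyclin and KRP7 were the 2 called higher at both steps in WT. In siz1-2 it had 71.1, 73.4 and 84.9 rpm at 0 d, 162, 151 and 129 rpm at CIM 4 d, 250, 274 and 221 rpm at SIM 4 d and 292, 274 and 266 rpm at SIM 6 d, with both steps called. A neighbouring gene on the same strand that overlaps it, AT4G34150, had 42.5 ± 1.04 rpm at 0 d and 37.2 ± 4.35 at CIM 4 d.

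CYCD3;2 (AT5G67260) and CYCD3;3 (AT3G50070), close relatives of that gene, rose with it on callus medium but then fell. CYCD3;2 had 16.1, 12 and 14.3 rpm at 0 d, 49.7, 57.8 and 47.0 rpm at CIM 4 d and 23.5, 32.5 and 27.4 rpm at SIM 4 d. No group overlapped another, with a rise of 1.80 ± 0.21 (adjusted p = 1.96e-07) and a fall of -0.87 ± 0.21 (adjusted p = 0.00225). In siz1-2 it had 11.7, 12.6 and 10.7 rpm at 0 d, between 49.8 and 69.1 rpm at CIM 4 d and 42.1, 43.9 and 31.2 rpm at SIM 4 d, the same order of stages. At SIM 6 d the WT libraries spread from 22.5 to 45.4 rpm and those of siz1-2 from 37.3 to 60.1 rpm. CYCD3;3 had 19.6, 14.4 and 17.1 rpm at 0 d, 29.1, 44 and 28.3 rpm at CIM 4 d and 19.7, 20.8 and 14.2 rpm at SIM 4 d. Its CIM 4 d libraries were the highest and its SIM 4 d libraries lay back among those of 0 d, with a change of 0.93 ± 0.22 (adjusted p = 0.000699) and then of -0.84 ± 0.22 (adjusted p = 0.00365). The siz1-2 libraries had 16.2, 14.1 and 9.54 rpm at 0 d, 38.1, 45.5 and 50.7 rpm at CIM 4 d and 28.0, 27.6 and 19.4 rpm at SIM 4 d, and both changes were called.

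CYCD4;1 (AT5G65420), which acts in lateral root founder cells, had 1.74, 1.83 and 2.08 rpm at 0 d, 7.37, 8.53 and 7.64 rpm at CIM 4 d and 9.54, 11.1 and 10.1 rpm at SIM 4 d. It rose by 1.62 ± 0.20 (adjusted p = 3.86e-07), and the later difference of 0.34 ± 0.20 was not called (adjusted p = 0.174) although its libraries did not overlap. In siz1-2 the levels were 1.32, 1.44 and 2.00 rpm, then 7.96, 8.52 and 4.77 rpm, then 10.7, 10.9 and 9.17 rpm at these stages, and there the later rise was called (0.51 ± 0.20, adjusted p = 0.0387). The difference between the genotypes in that step was not called. CYCD1;1 (AT1G70210), a D-type cyclin of germinating seeds, ran the other way: 43.5, 51.3 and 46.3 rpm at 0 d, 17.5, 10.6 and 19.7 rpm at CIM 4 d, 6.77, 9.04 and 7.38 rpm at SIM 4 d and 9.43, 12.7 and 11.2 rpm at SIM 6 d. It fell at both steps, by -1.54 ± 0.18 (adjusted p = 1.62e-07) and by -0.92 ± 0.18 (adjusted p = 0.000336), with no overlap between 0 d, CIM 4 d and SIM 4 d. The siz1-2 libraries went from 53.4, 46.1 and 47.4 rpm at 0 d to 15.9, 17.3 and 11 rpm at CIM 4 d and 9.37, 7.62 and 8.47 rpm at SIM 4 d. CYCB1;4 was the only other gene of the 43 called lower at both steps in WT.

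CYCD6;1 (AT4G03270), known from the formative divisions of root ground tissue, was low throughout and rose on shoot medium. It had 3.39, 4.01 and 3.06 rpm at 0 d, 2.74, 2.87 and 2.38 rpm at CIM 4 d, 6.70, 6.38 and 8.12 rpm at SIM 4 d and 7.91, 9.59 and 7.23 rpm at SIM 6 d. The change of 1.13 ± 0.17 from CIM 4 d to SIM 4 d (adjusted p = 1.49e-05) separated all 3 libraries of each group. In siz1-2 the libraries had 3.33, 3.50 and 1.93 rpm at CIM 4 d and 8.02, 5.98 and 6.86 rpm at SIM 4 d, again with no overlap. Of the 50-base windows of its transcript 19.7% also lie in AT4G03260 on the other strand, which had 125 ± 15.9 rpm at CIM 4 d and 176 ± 27.4 at SIM 4 d. The sources used here do not say whether the counting used strand, and the part of such reads in the rise was not tested. CYCD2;1 stayed between 22.7 and 33.5 rpm in the 12 WT libraries and CYCD4;2 at or below 1.35 rpm. In siz1-2 CYCD4;2 was called higher from 0 d to CIM 4 d.

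**Figure D3:**
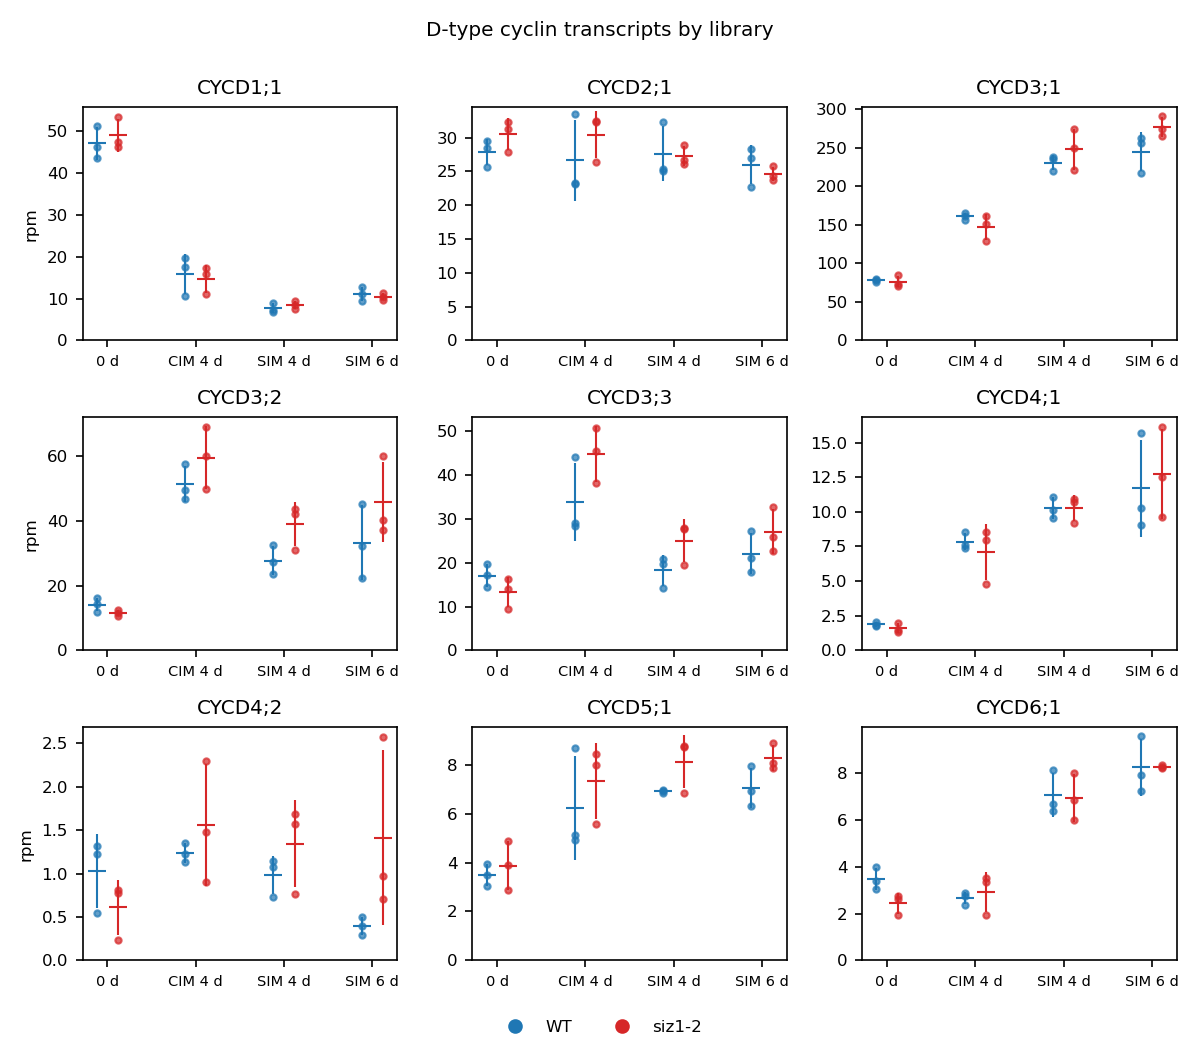
Level (rpm, axes from 0) of the 9 tested D-type cyclins in each library (points) of WT (blue) and siz1-2 (red) at the 4 stages, with the mean and SD (bars) of 3 libraries. Of the 3 CYCD3 genes the first climbs at CIM 4 d and SIM 4 d and the others peak at CIM 4 d, and CYCD1;1 falls.

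Of the 8 A-type cyclins, 6 rose on callus medium in WT and none fell, with CYCA3;2 (0.41 ± 0.13, adjusted p = 0.0072) at -0.01 under median-of-ratios scaling. Of all genes 49.1% rose and 26.6% fell at that step. CYCA2;4 (AT1G80370), of the CYCA2 group that pairs with CDKB1;1 and holds back endoreduplication, showed the largest rise of all 43 genes. It had 3.14, 3.58 and 6.79 rpm at 0 d, 31.4, 58.7 and 24.3 rpm at CIM 4 d, 12.2, 15.1 and 15.0 rpm at SIM 4 d and 13.0, 20.6 and 14.1 rpm at SIM 6 d. Every CIM 4 d library lay above all others despite their spread, with a rise of 2.79 ± 0.29 (adjusted p = 2.73e-08) and a fall of -1.28 ± 0.29 (adjusted p = 0.00113). Its siz1-2 libraries had 2.94, 2.63 and 3.66 rpm at 0 d, 27.0, 32.8 and 48.8 rpm at CIM 4 d, 11.9, 18.4 and 12.4 rpm at SIM 4 d and 21.1, 17.0 and 18.1 rpm at SIM 6 d, also highest in all CIM 4 d libraries. CYCA2;3 (AT1G15570), of the same group, had 10.1, 8.37 and 7.88 rpm at 0 d and 36.1, 35.0 and 37.7 rpm at CIM 4 d, a rise of 1.94 ± 0.10 (adjusted p = 9.42e-13). The siz1-2 libraries went from 6.90, 7.66 and 8.43 rpm to 38.6, 36.0 and 36.2 rpm. Its later WT libraries stayed between 29.4 and 35.1 rpm, and the change on shoot medium was not called (-0.18 ± 0.10, adjusted p = 0.152). The difference between the changes of both genes was not tested. AT1G15580, which overlaps CYCA2;3 on the other strand, went from 1.88 ± 0.504 to 16.7 ± 1.77 rpm, and the part of its reads was not tested, although no 50-base window is common to both transcripts.

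CYCA1;2 (AT1G77390), the meiotic A-type cyclin known as TAM, was among the genes with an E2F site and had at most 0.91 rpm in the WT libraries at 0 d. At CIM 4 d it had 4.25, 4.81 and 2.01 rpm, a rise of 1.59 ± 0.24 (adjusted p = 5.6e-06), and it stayed between 3.08 and 5.72 rpm on shoot medium. The other A-type cyclins called higher were CYCA3;1 (1.19 ± 0.15) and CYCA1;1 (0.82 ± 0.12). CYCA3;2 fell on shoot medium by -0.65 ± 0.13 (adjusted p = 0.000415).

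Of the 9 B-type cyclins, 8 rose on callus medium in WT and CYCB1;4 fell, of which CYCB1;3 and CYCB2;4 were not called with median-of-ratios scaling. On shoot medium 5 of the 9 fell and none rose. Of all genes 49.1% rose and 26.6% fell at the first of these steps, and 21.2% rose and 24.5% fell at the second. CYCB2;1 (AT2G17620) had 3.39, 3.40 and 3.28 rpm at 0 d, 15.5, 17.7 and 14.4 rpm at CIM 4 d, 6.16, 4.85 and 6.24 rpm at SIM 4 d and 7.48, 8.93 and 6.43 rpm at SIM 6 d. It had the sharpest peak at CIM 4 d of the class, with a rise of 1.95 ± 0.18 (adjusted p = 5.38e-09) and a fall of -1.33 ± 0.18 (adjusted p = 7.1e-06). The siz1-2 libraries had 2.23, 3.35 and 4.11 rpm at 0 d, 14.4, 18.3 and 15.1 rpm at CIM 4 d and 7.26, 8.89 and 8.21 rpm at SIM 4 d, with no overlap between stages. CYCB1;1 (AT4G37490), the usual marker of cells in G2 and M phase, had 5.54, 7.59 and 6.68 rpm at 0 d, 27.6, 27.5 and 24.8 rpm at CIM 4 d, 18.6, 20.8 and 18.2 rpm at SIM 4 d and 18.7, 27.4 and 23.0 rpm at SIM 6 d. It rose by 1.87 ± 0.16 (adjusted p = 1.24e-09) and fell by -0.45 ± 0.16 (adjusted p = 0.0242), a fall that was not called without any 1 of 4 of the WT libraries (CIM 4 d replicates 1 and 2, SIM 4 d replicates 1 and 3). In siz1-2 it had 5.89, 5.62 and 4.55 rpm at 0 d, 32.9, 37.5 and 28.9 rpm at CIM 4 d and 22.6, 32.3 and 22.8 rpm at SIM 4 d, and the later groups overlapped.

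CYCB1;4 (AT2G26760), whose promoter shown above holds no MSA core, began as the highest B-type cyclin per kilobase at 23.1 ± 2.38 rpm per kb. Its WT libraries had 42.7, 46.1 and 37.4 rpm at 0 d, 37.2, 33.7 and 32.1 rpm at CIM 4 d and 26.4, 30.1 and 28.0 rpm at SIM 4 d. The changes were small, -0.28 ± 0.11 at each step (adjusted p = 0.0236 and 0.0445), 0 d and CIM 4 d came within 0.2 rpm of each other, and leaving out WT 0 d replicate 1 or 2 or WT CIM 4 d replicate 2 or 3 ended the first call. In siz1-2 neither step was called (-0.11 ± 0.11, adjusted p = 0.37, and -0.16 ± 0.11, adjusted p = 0.234), with 43.7, 38.2 and 42.7 rpm at 0 d, 39.2, 42.8 and 33.8 rpm at CIM 4 d and 31.8, 38.1 and 33.4 rpm at SIM 4 d, groups that overlapped from stage to stage. CYCB2;4 and CYCB3;1, the other B-type cyclins with no MSA core in the window, rose by 0.69 ± 0.14 and 1.19 ± 0.16 on callus medium. The 4 B-type cyclins not yet described, with 3 or 4 cores each, rose by 0.60 to 0.83. Of the transcript windows of CYCB2;3 17.3% are shared with AT1G20590 and of CYCB1;2 12.2% with AT1G34460, so reads could be split between these copies.

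CDKA;1 (AT3G48750), the CDK that carries the conserved PSTAIRE helix and serves all phases, was the only CDK that fell from 0 d to CIM 4 d. It had 98.7, 98.4 and 108 rpm at 0 d, 79.3, 86.2 and 75.9 rpm at CIM 4 d, 72.8, 71.7 and 67.8 rpm at SIM 4 d and 71.6, 65.2 and 80.1 rpm at SIM 6 d. The groups at 0 d and CIM 4 d did not overlap, with a change of -0.34 ± 0.08 (adjusted p = 0.000766), and the next one was not called (-0.18 ± 0.08, adjusted p = 0.0685). With siz1-2 the levels were 114, 114 and 106 rpm at 0 d and 77.6, 80.3 and 83.3 rpm at CIM 4 d, a change of -0.46 ± 0.08 (adjusted p = 2.31e-05). All 4 B-type CDKs rose on callus medium, where 49.1% of all genes rose, CDKB2;1 with no call under median-of-ratios or TMM scaling. CDKB1;1 (AT3G54180) had 11.3, 11.5 and 11.6 rpm at 0 d, 31.4, 38.6 and 33.2 rpm at CIM 4 d and between 32.2 and 35.7 rpm on shoot medium. Its rise of 1.5 ± 0.10 (adjusted p = 7.17e-11) was held, with a change of -0.08 ± 0.10 on shoot medium that was not called. Its relative CDKB1;2 rose by 1.37 ± 0.12 and fell by -0.52 ± 0.12 (adjusted p = 0.00119), the only CDK called lower on shoot medium in WT. Of its transcript windows 19.6% lie in AT2G38630 on the other strand, which went from 10.7 ± 1.07 to 22.9 ± 1.59 rpm from 0 d to CIM 4 d. For CDKB1;1 the share was 1.65%, in AT3G54190 on the other strand, with 77.2 ± 6.23 rpm at 0 d and 69.8 ± 12.7 at CIM 4 d in WT. The part of such reads was not tested for either gene.

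WEE1 (AT1G02970), the kinase that holds CDKs inactive when DNA is damaged, had 5.63, 4.36 and 4.05 rpm at 0 d and 12, 13.9 and 10.3 rpm at CIM 4 d in WT. It rose by 1.2 ± 0.17 (adjusted p = 2.2e-06) and then stayed between 8.99 and 15.5 rpm. In siz1-2 it went from 3.55, 3.95 and 3.00 rpm to 11.8, 11.2 and 13.3 rpm, a rise of 1.54 ± 0.17 (adjusted p = 5.98e-08). The CKS proteins dock CDKs onto their substrates. CKS1 (AT2G27960) had 27.0, 22.5 and 27.4 rpm at 0 d and 41.5, 27.2 and 44 rpm at CIM 4 d, groups that overlapped, and its rise of 0.51 ± 0.18 (adjusted p = 0.0126) was not called with either other scaling or without any 1 of 3 libraries (WT 0 d replicate 2, WT CIM 4 d replicates 1 and 3). CKS2 (AT2G27970) had 33.7, 30.2 and 29.6 rpm at 0 d, 66.2, 42.4 and 65.8 rpm at CIM 4 d and 43.2, 37.5 and 26.2 rpm at SIM 4 d. It rose by 0.85 ± 0.20 (adjusted p = 0.000595), not called with median-of-ratios scaling (adjusted p = 0.0538), and fell by -0.69 ± 0.20 (adjusted p = 0.00723), not called without SIM 4 d replicate 3. The genes CKS1 and CKS2 lie side by side on chromosome 2, and no 50-base window is common to their transcripts. CKS2 overlaps AT2G27980 on the same strand, in which 2.52% of its windows lie. In WT AT2G27980 went from 29.3 ± 1.45 rpm at 0 d to 46.3 ± 4.22 at CIM 4 d, and the part of its reads was not tested.

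The inhibitors divided. Of the 7 KRP genes 4 rose and 3 fell on callus medium in both genotypes, and 4 rose and 2 fell on shoot medium in both. Of all genes in WT 49.1% rose and 26.6% fell at the first of these steps, and 21.2% rose and 24.5% fell at the second. In siz1-2 the shares were 49.6% and 27.3%, then 28.8% and 25.1%. With median-of-ratios scaling 3 KRP genes rose and 3 fell in WT on callus medium, where 35.5% of all genes rose and 37.7% fell. KRP1 (AT2G23430), which interacts with CDKA;1 and D-type cyclins, had 13.6, 14.8 and 13.6 rpm at 0 d in WT, 2.08, 1.27 and 2.13 rpm at CIM 4 d, 3.46, 4.04 and 3.89 rpm at SIM 4 d and 3.74, 3.88 and 3.49 rpm at SIM 6 d. The fall of -2.42 ± 0.17 (adjusted p = 6.31e-11) was the largest of all 43 genes and left a narrow gap to the SIM 4 d libraries, a rise of 0.78 ± 0.17 (adjusted p = 0.000845). In siz1-2 it had 13.1, 13.6 and 19.1 rpm at 0 d, 2.87, 1.88 and 2.20 rpm at CIM 4 d and 3.88, 4.11 and 2.63 rpm at SIM 4 d, where the last groups overlapped. KRP2 (AT3G50630), an inhibitor of lateral root initiation that auxin represses, had 16.5, 18.8 and 12.5 rpm at 0 d, 6.14, 2.37 and 6.02 rpm at CIM 4 d, 33.0, 40.1 and 34.1 rpm at SIM 4 d and 27.3, 27.2 and 30.9 rpm at SIM 6 d. It fell by -1.60 ± 0.26 (adjusted p = 1.72e-05) and then rose by 2.73 ± 0.26 (adjusted p = 1.08e-07) to above its starting level in every library. In siz1-2 the levels were 19.3, 13.9 and 16 rpm at 0 d, 5.0, 6.46 and 2.57 rpm at CIM 4 d, 32.3, 35.9 and 22.6 rpm at SIM 4 d and 27.1, 28.5 and 25.8 rpm at SIM 6 d, the same course without overlap up to SIM 4 d. KRP6 moved the same way to a smaller extent, by -0.51 ± 0.15 and 0.72 ± 0.15.

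KRP3 (AT5G48820) mirrored them: 2.23, 2.01 and 1.97 rpm at 0 d, 14.4, 12.2 and 13.0 rpm at CIM 4 d, 6.62, 6.46 and 5.30 rpm at SIM 4 d and 4.96, 10.0 and 7.39 rpm at SIM 6 d. It rose by 2.21 ± 0.18 (adjusted p = 9.63e-10) and fell by -1.0 ± 0.18 (adjusted p = 0.000181), with no overlap between the first 3 stages. The levels in siz1-2 were 1.32, 0.837 and 1.89 rpm at 0 d, 11.9, 12.1 and 15.6 rpm at CIM 4 d and 6.67, 6.72 and 6.22 rpm at SIM 4 d. KRP7 (AT1G49620) had 1.32, 1.83 and 1.2 rpm at 0 d, 4.91, 2.62 and 4.14 rpm at CIM 4 d, 15.7, 14.3 and 10.1 rpm at SIM 4 d and 8.06, 13.8 and 10.2 rpm at SIM 6 d. It climbed at both steps, by 0.97 ± 0.26 (adjusted p = 0.00184) and by 1.56 ± 0.26 (adjusted p = 5.48e-05). The siz1-2 libraries had 1.22, 1.08 and 2.00 rpm, 5.93, 3.14 and 2.02 rpm, and 11.7, 12.3 and 11 rpm at these 3 stages. KRP5 rose by 1.2 ± 0.16 on callus medium and was not called afterwards. KRP4 rose by 0.55 ± 0.14, not called with either other scaling, and fell by -0.51 ± 0.14, while 37.4% of its transcript windows lie in AT2G32720 on the other strand, which had 37.5 ± 4.68, 48.9 ± 3.56 and 86.8 ± 4.03 rpm at these stages.

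SIAMESE (AT5G04470), which blocks mitosis in endoreduplicating trichome cells, fell by the most rpm of the 43 genes. Its WT libraries had 101, 96.7 and 106 rpm at 0 d, 22.4, 15.7 and 22.4 rpm at CIM 4 d, 27.5, 34.6 and 28.2 rpm at SIM 4 d and 21.2, 21.2 and 19.1 rpm at SIM 6 d. It fell by -2.28 ± 0.17 (adjusted p = 1.53e-10) and rose by 0.56 ± 0.17 on shoot medium (adjusted p = 0.00972), a rise not called without CIM 4 d replicate 2 or SIM 4 d replicate 2. Libraries of siz1-2 had 90.6, 85.7 and 126 rpm at 0 d, 21.6, 22.8 and 15.1 rpm at CIM 4 d and 25.7, 22.9 and 20.7 rpm at SIM 4 d, and the later change was not called (0.22 ± 0.17, adjusted p = 0.277). SMR1 (AT3G10525), a relative of SIAMESE that also restrains CDKs, had 12, 10.6 and 10.8 rpm at 0 d, 4.82, 3.04 and 8.90 rpm at CIM 4 d and 7.54, 5.33 and 7.25 rpm at SIM 4 d. It fell by -0.98 ± 0.33 (adjusted p = 0.0111), not called without CIM 4 d replicate 2, and was not called on shoot medium (0.31 ± 0.33, adjusted p = 0.463). Annotated genes on the other strand, AT5G04475 and AT3G10527, cover 25.4% of the windows of SIAMESE and 32.7% of those of SMR1, and neither is listed in the expression files.

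**Figure D4:**
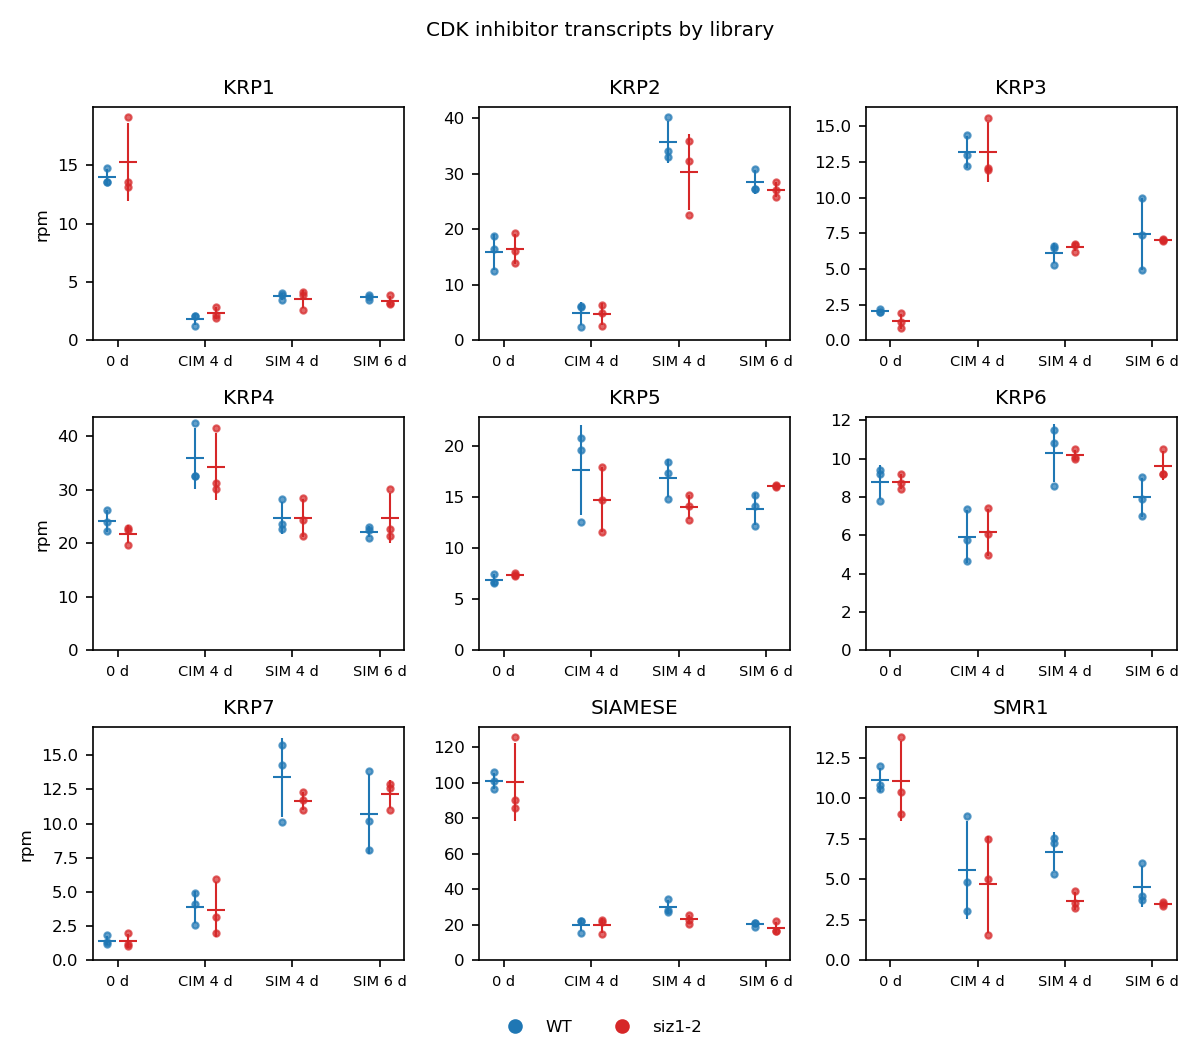
Level (rpm, axes from 0) of the 7 KRP genes, SIAMESE and SMR1 in each library (points) of WT (blue) and siz1-2 (red) at the 4 stages, with the mean and SD (bars) of 3 libraries. KRP1, KRP2 and SIAMESE fall at CIM 4 d, where KRP3 peaks, and KRP2 and KRP7 are high at SIM 4 d in both genotypes.

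Over the 4 stages, 16 of the 43 genes rose in WT on callus medium and were not called later, 12 rose and then fell, 4 fell and then rose (KRP1, KRP2, KRP6 and SIAMESE), 2 rose at both steps, 2 fell at both, 2 fell only on callus medium (CDKA;1 and SMR1), CYCD6;1 rose only on shoot medium and 4 were never called (CYCA2;1, CYCA2;2, CYCD2;1 and CYCD4;2). By mean level, 19 of the 44 genes peaked at CIM 4 d in WT, 12 at SIM 6 d, 8 at 0 d and 5 at SIM 4 d. The genes at 0 d include CYCD7;1, which had 1 read in 1 library. Neither the patterns nor the peaks were counted over all genes, so no share stands beside them. In siz1-2, 15 peaked at CIM 4 d, 20 at SIM 6 d, 6 at 0 d and 2 at SIM 4 d, and 1 had no read. These peaks are read from group means whose libraries overlap for genes such as CDKB1;1 (31.4 to 38.6 rpm at CIM 4 d in WT and 32.6 to 35.7 rpm at SIM 6 d), and the shift between genotypes was not tested. No gene was called in opposite directions in the 2 genotypes at the same step.

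The siz1-2 explants were compared with WT at each stage. At 0 d, 2 of the 43 genes were lower in siz1-2 and none was higher, with a median of -0.07, where 4.37% of all genes were higher and 6.6% lower with the same median of -0.07. CDKB1;1 had 7.82, 10.3 and 7.10 rpm in siz1-2 against 11.3, 11.5 and 11.6 rpm in WT, with no overlap and a difference of -0.42 ± 0.10 (adjusted p = 0.012). CYCB1;3 (AT3G11520) had 17.5, 14.4 and 13.8 rpm in siz1-2 against 19.9, 19.0 and 19.8 rpm in WT, a difference of -0.35 ± 0.10 (adjusted p = 0.0201). Neither was called by DESeq2, and CYCB1;3 was not called by edgeR or without the 4 libraries that stood apart. CDKB1;2 was also called lower by limma with isoform number 1 (-0.39, adjusted p = 0.0346) and with isoforms summed (-0.37, adjusted p = 0.0378). Without WT replicate 1, or siz1-2 replicate 2 or 3, 1 of the 43 was called at this stage. The summed level of 5 heat shock genes differed at 0 d as well, from 853 to 1840 rpm in siz1-2 and 150 to 235 rpm in WT, and its part in these differences was not tested.

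At CIM 4 d and SIM 4 d limma called none of the 43 genes between the genotypes. At an unadjusted p under 0.05 there were 1 and 9, and no share of all genes at that threshold stands beside these counts. Neither edgeR nor DESeq2 called any of the 43. At CIM 4 d WT replicate 2 and siz1-2 replicate 3, both among the libraries that stood apart, deviated together (correlation 0.81). The unpaired fit leaves such a shared deviation in its error, and its part in the lack of calls was not tested with a paired fit. Without the 4 libraries that stood apart none of the 43 was called at CIM 4 d either, where 361 of all genes were higher and 196 lower. By limma's adjusted calls 1.3% of all genes were higher and 0.904% lower at CIM 4 d, and 1.1% were higher and 1.1% lower at SIM 4 d. Closest to the threshold at CIM 4 d was CYCA2;1 (-0.45 ± 0.19, adjusted p = 0.334) and at SIM 4 d CDKB2;2 (0.31 ± 0.10, adjusted p = 0.162). The 95% interval of the difference lay within -1 and 1 for all 43 genes at CIM 4 d and for 42 at SIM 4 d, where that of SMR1 ran from -1.41 to -0.02. SMR1 had 3.55, 3.21 and 4.30 rpm in siz1-2 at SIM 4 d, all below the WT libraries, and was called (-0.71, adjusted p = 0.0426) without the 4 libraries that stood apart.

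At SIM 6 d, 2 of the 43 genes were higher in siz1-2 and none lower, where 1.42% of all genes were higher and 1.59% lower. CDKB2;2 (AT1G20930), a mitotic CDK needed for meristem organisation, had 64.4, 58.4 and 54.7 rpm in siz1-2 against 37.3, 42.9 and 43.8 rpm in WT, a difference of 0.51 ± 0.10 (adjusted p = 0.00895). CYCB1;1 had 41.8, 33.5 and 30.4 rpm against 18.7, 27.4 and 23.0 rpm, a difference of 0.60 ± 0.16 (adjusted p = 0.0432). In both genes every siz1-2 library lay above every WT library. The call of the cyclin was lost in 10 of 18 alternatives, among them TMM and median-of-ratios scaling and edgeR, and that of the CDK in 3, and both were lost without replicate 1 of either genotype. Without WT replicate 3 or siz1-2 replicate 2, 1 was called. The sum of the heat shock genes was 2500 rpm in WT replicate 2 and 88.3 to 138 rpm in the other 5 libraries, and without it and the other libraries that stood apart the differences were 0.54 (adjusted p = 0.00791) for the CDK and 0.73 (adjusted p = 0.0144) for the cyclin. Over the 43 genes 35 differences were above 0, with a median of 0.18, against 12648 of 20361 genes with a median of 0.05. The largest was that of CYCD4;2, a gene of low level, at 0.71 with a 95% interval from 0.17 to 1.25, and it was not called. The gene on the other strand of CDKB2;2, AT1G20925, had at most 0.279 ± 0.169 rpm in any group.

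Averaged over the 4 stages, CDKB2;2 (0.25 ± 0.05, adjusted p = 0.0025), CYCB1;1 (0.26 ± 0.08, adjusted p = 0.0351) and CYCB1;4 (0.19 ± 0.05, adjusted p = 0.0267) were higher in siz1-2 and none of the 43 was lower, where 5.96% of all genes were higher and 6.51% lower. CYCB1;4 had 45.5, 41.8 and 38.4 rpm in siz1-2 at SIM 6 d against 29.4, 33.7 and 36.7 rpm in WT, and 31.8, 38.1 and 33.4 rpm against 26.4, 30.1 and 28.0 rpm at SIM 4 d, in both cases with no overlap, and its groups overlapped at 0 d. CDKB2;2 kept this call in every alternative run. The count of 3 became 1 without any 1 of 6 libraries (WT CIM 4 d replicate 3, WT SIM 4 d replicate 1, WT SIM 6 d replicate 1, siz1-2 CIM 4 d replicate 2, siz1-2 SIM 4 d replicate 2 and siz1-2 SIM 6 d replicate 1), and 7 without the 4 libraries that stood apart.

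Whether a stage step differed between the genotypes was tested as an interaction. For the step to CIM 4 d, CDKB1;1 was called alone of the 43 genes, where 3.15% of all genes were called. It rose by 2.08 ± 0.10 in siz1-2 and by 1.5 ± 0.10 in WT, a difference of 0.58 ± 0.15 (adjusted p = 0.0335). The siz1-2 libraries started lower at 0 d and had 37.2, 35.5 and 42.9 rpm at CIM 4 d, overlapping WT. The call was lost in 12 of 24 alternatives, edgeR and most single left-out libraries among them. CYCB1;3 came next (0.49 ± 0.14, adjusted p = 0.0547). For the steps to SIM 4 d and SIM 6 d none of the 43 was called by limma, edgeR or DESeq2 and none had an unadjusted p under 0.05, where 0.211% and 0.00982% of all genes were called. The lowest p values there were those of CYCD3;1 (0.24 ± 0.14, adjusted p = 0.623) and KRP5 (0.46 ± 0.22, adjusted p = 1).

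**Figure D5:**
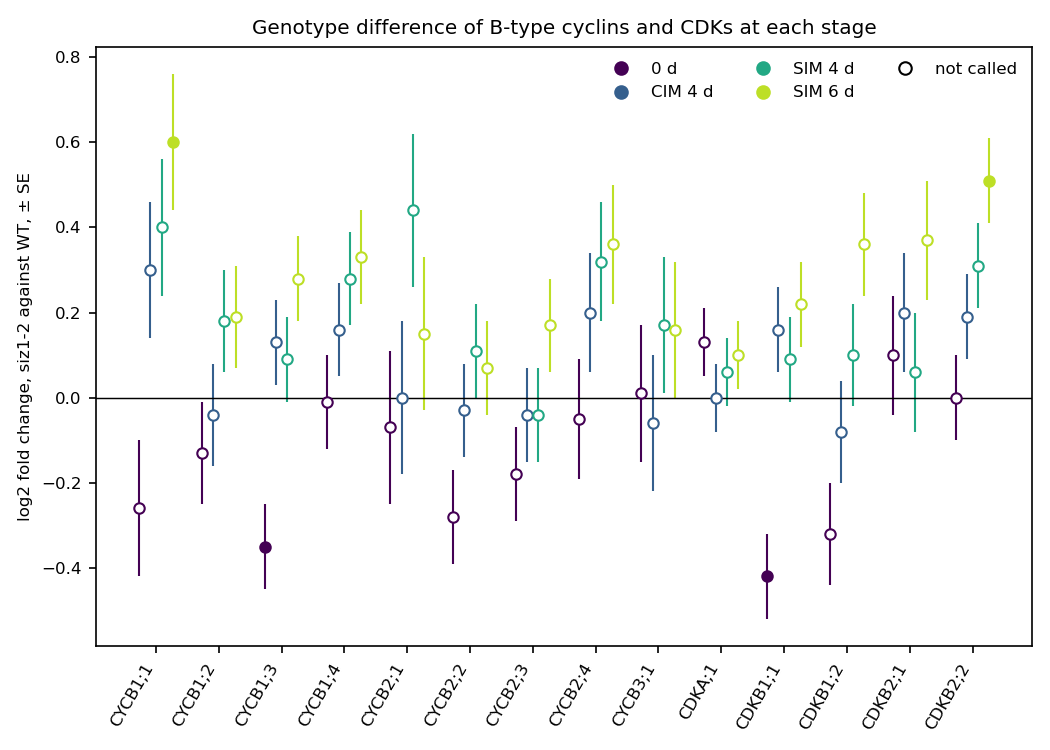
Log2 fold change of siz1-2 against WT with its SE (bars) for the 9 B-type cyclins and 5 CDKs at each stage (colours). Filled symbols passed the adjusted threshold. A B-type cyclin and a CDK are filled below 0 at 0 d, and another of each is filled above 0 at SIM 6 d, where all 14 genes lie above 0.

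Most listed genes of the E2F pathway, DNA replication, mitosis and the anaphase-promoting complex rose on callus medium in WT, at a step where 49.1% of all genes rose, 26.6% fell and the median was 0.35. All 9 genes of the E2F, DP and RBR group, which gates S phase, rose, led by E2FA from 6.93 ± 0.168 to 25.4 ± 1.29 rpm (1.73 ± 0.11). All 8 genes of DNA replication licensing and synthesis rose, with a median of 1.63, as MCM5, a subunit of the replicative helicase, did from 19.0 ± 0.962 to 83.8 ± 15.7 rpm. Of 8 genes of mitosis and cytokinesis 7 rose (median 0.86), and AUR3, an Aurora kinase, went from 3.10 ± 0.443 to 14.1 ± 1.06 rpm. Of 8 regulators of the anaphase-promoting complex, which degrades mitotic cyclins, 7 rose, and OSD1, an inhibitor of that complex, rose by 1.92 ± 0.13. Of the 4 MYB3R genes, whose products bind the MSA core, 3 rose, and MYB3R1 went from 32.3 ± 1.61 to 69.5 ± 7.02 rpm. With median-of-ratios scaling, under which 35.5% of all genes rose and 37.7% fell, 9 genes of the E2F group, 7 of replication, 6 of mitosis, 5 of the anaphase-promoting complex and 2 MYB3R genes rose, and none of these lists held a gene called lower.

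On shoot medium 5 of the 8 replication genes, 4 of the 9 genes of the E2F group and 5 of the 8 regulators of the anaphase-promoting complex fell in WT, and 2 of the 8 mitosis genes, where 24.5% of all genes fell. The share of mitosis genes was thus close to that of all genes. MYB3R4, an activator of mitotic genes, rose from 57.4 ± 6.77 to 76.6 ± 8.99 rpm (0.41 ± 0.11, adjusted p = 0.00544) while 5 B-type cyclins fell. Among F-box proteins of the cell cycle, SKP2B rose from 15.4 ± 1.29 to 98.4 ± 15.0 rpm at CIM 4 d and fell back to 13.7 ± 3.22 rpm at SIM 4 d, whereas SKP2A fell from 33.9 ± 4.33 to 11.7 ± 1.33 rpm and stayed there. Of the CDK-activating and transcriptional CDKs and their cyclins 6 of 8 rose and 2 fell on callus medium, led by CYCH;1, the cyclin of the CDK-activating kinase, with 1.61 ± 0.10. With median-of-ratios scaling 4 of these rose and 2 fell, where 35.5% of all genes rose and 37.7% fell. Of 6 further tested genes listed with SIAMESE and SMR1, 2 rose and 1 fell on callus medium, shares below the 49.1% and 26.6% of all genes. With median-of-ratios scaling 1 of these rose and 1 fell. The one with the largest change, AT1G10690, went from 1.27 ± 0.442 to 12.9 ± 0.568 rpm (2.63 ± 0.17).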

How the data were processed

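Total RNA was column-purified with DNase and made into stranded mRNA libraries, per the labels' protocols. Bowtie 1.2.1, bcl2fastq and the TAIR10 build are named in the submitters' processing notes, without a counting rule or its use of strand. The deposited signal, 1 value for each of 33864 isoforms, was found to be a whole read count divided by 1 library total and multiplied by 1000000 (all values whole within 0.001 of a read), called rpm here. Columns sum to 1.534 to 1.709 times 1000000, so a read could count for several isoforms. A gene was represented by its isoform of highest mean level (8 of the 44 genes have several). Genes with at least 1 rpm in at least 3 libraries were tested with limma 3.58.1 (R 4.3.3; trend and robust options) on log2(rpm + 1), with 8 group means and 16 residual degrees of freedom. As alternatives, edgeR 4.0.16 and DESeq2 1.42.0 were run on the recovered reads, and pseudocount, filter, scaling, isoform choice, samples fitted, left-out libraries and a replicate block were varied. The limma step was tested on simulated data. No 2 replicates were alike within counting noise (chi-square per gene 2.81 to 41.41).

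The 44 genes and the other gene lists were chosen with earlier results of these data known. Values of single libraries, though not of every group, are given for the 10 called genes with the largest change at each WT stage step and for genes called between genotypes. The same holds for CDKA;1, SIAMESE, SMR1, WEE1 and the CKS genes, the last without values of siz1-2. From other lists up to 3 called genes with the largest change are named. Further genes named (CYCA1;2, CDKB1;2, SKP2A, MYB3R1, MYB3R4, the overlapping neighbours and the promoters shown) were chosen after their values were seen. Coordinates, transcript lengths and promoters come from RefSeq's TAIR10.1 copy, in which all 44 identifiers were found. Of the 44 genes, 11 overlap a gene on the other strand there and 2 one on the same strand. Of 30 pairs of libraries with the same replicate number in different groups, only 6 deviated together (correlation over 0.1), so samples were treated as unpaired. Libraries that deviated together under different numbers were not paired either.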

Additional observations from a re-analysis of the deposited data

Results flagged for a closer look

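The rise of CDKB1;1 on callus medium was larger in siz1-2 than in WT, by 0.58 on the log2 scale in the test of the interaction of genotype with the step from 0 d to CIM 4 d (limma, adjusted p = 0.0335). The adjusted p ranged from 0.00387 to 0.202 over 24 alternatives, and the call was lost in 12 of them. No other of the 43 tested genes met this test.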

How the results depend on the processing

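Of 128 calls of single genes over all comparisons, 93 were kept under every alternative run, 35 were lost under at least 1 and 1 changed sign: CYCA3;2 in WT from 0 d to CIM 4 d, at -0.01 (adjusted p = 0.949) with median-of-ratios scaling. The counts of called genes at the first 2 stage steps stayed within 1.5 times in both genotypes under every setting other than single left-out libraries. Comparisons of the genotypes moved more. At 0 d the 2 called genes became 1 with edgeR and without the 4 libraries that stood apart, and 0 with DESeq2 and with only the groups compared. With isoform number 1 or with isoforms summed CDKB1;2 was called in addition. At SIM 4 d the count of 0 became 1 without the 4 libraries. At SIM 6 d the 2 became 1 with the pseudocount 0.25, without the filter, with TMM or median-of-ratios scaling and with edgeR, and 0 with only the groups compared. The averaged count of 3 became 7 without the 4 libraries. The 1 interaction became 0 with edgeR, with only the groups compared and without the 4 libraries. DESeq2 called 1 gene higher in WT and 2 in siz1-2 from SIM 4 d to SIM 6 d, where limma called 0. Of all genes DESeq2 called 243 higher in WT and 99 in siz1-2 at this step, and limma 67 and 58. The causes were not tested. Leaving out single libraries gave 0 to 1 genes higher from SIM 4 d to SIM 6 d in WT (1 without WT SIM 6 d replicate 1), 5 to 9 higher from CIM 4 d to SIM 4 d in siz1-2, 1 to 2 called between genotypes at 0 d, 0 to 2 at SIM 6 d, 1 to 4 in the average and 0 to 1 for the interaction. With a replicate block 30 genes rose and 8 fell in WT on callus medium as without it, and 15 in place of 14 fell on shoot medium in siz1-2. Same-numbered samples correlated from -0.73 to 0.61 (median -0.035), so the numbers do not pair samples. Under different numbers some libraries deviated together, as WT CIM 4 d replicate 2 and siz1-2 CIM 4 d replicate 3 did (correlation 0.81). No fit paired such libraries. Depth limits CYCD7;1, whose libraries hold at most 1 read.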
